A study of Mus musculus with 5 samples.

Results

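A group of 43 lysosomal genes was followed in dendritic cells sorted from the mouse thymus: 13 genes of the vacuolar proton pump, 6 of lysosomal membrane proteins, 20 of hydrolases with their activators and a thiol reductase, the sterol carrier Npc2, progranulin and the transcription factors Tfeb and Tfe3. The genes were taken by symbol from a written list, and all 43 were found among the 18051 genes of the count table. The cells came from C57BL/6J mice aged 6 to 8 weeks. One group was taken 4 days after total body irradiation (TBI) and gave 3 libraries, and the other was untreated and gave 2 libraries. Cells had been sorted as CD45+, MHC class II+ and CD11c+, thymi were pooled before sorting, and the radiation dose is not given in the sources used here. Nothing in the labels says that replicates came from separate pools, so p-values measure the spread between these libraries, which may be technical.

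Lysosomes are acidic compartments in which proteins, glycans, lipids and nucleic acids taken up by endocytosis, phagocytosis or autophagy are broken down. The vacuolar H+-ATPase (V-ATPase) pumps protons into them: its cytosolic V1 sector hydrolyses ATP and turns a rotor, and its membrane-embedded V0 sector carries the protons. Heavily glycosylated membrane proteins line the inner face, soluble hydrolases work in the lumen, and TFEB and TFE3 of the MiT/TFE family bind short E-box-like DNA elements upstream of many of these genes. In dendritic cells the compartment also cuts antigen and the invariant chain for loading of MHC class II, and macrophages use a more strongly degradative form of it.

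Total counts were 7549053, 8428589 and 7940442 in the TBI libraries and 7346330 and 7227000 in the untreated libraries. The groups separated on the first principal component, which held 72.7% of the variance, and the second, with 14.9%, set TBI replicate 1 apart from TBI replicates 2 and 3. Levels are given as CPM, counts per 1000000 counts of the tested genes after scaling. Of 10 core dendritic cell markers 7 were lower and 0 higher in TBI libraries, led by Flt3, the growth factor receptor of the lineage (-3.15 ± 0.15 on the log2 scale), and 4 were lower without TBI replicate 2 or with either untreated library left out. Xcr1 and the other type 1 dendritic cell markers were lower in 6 of 6 cases and plasmacytoid markers in 6 of 6, while natural killer (5 of 5), B cell (4 of 4 tested) and stromal (3 of 3 tested) markers were higher. The stromal list, led by Col3a1 and Dcn, summed to 27.9 to 214 CPM in the TBI libraries and 0.633 to 1.24 CPM in the untreated libraries, with Pdgfra at 0. Of 5 monocyte markers 2 were higher (Fn1 and Ccr2) and 3 lower. T cell markers were higher in 1 of 6 cases and lower in 2 (Cd8b1 and Rag1), and epithelial markers in 0 and 1 (Epcam) of 4. Neutrophil markers were higher in 1 (Retnlg) and lower in 1 (Mpo) of 4 tested. Mpo had 67 and 872 counts in untreated replicates 1 and 2 and 0 in each TBI library. In those untreated libraries S100a8 had 10 and 473 counts, S100a9 98 and 531, Elane 0 and 216, and Retnlg 72 and 94. The source of these differences was not tested. Over all genes tested 13.3% were called higher and 9.79% lower, and counts near these shares say nothing about a cell type. H2-Aa, an MHC class II chain used in the sort, had 6612, 6059.8 and 5214 CPM in the TBI libraries, against 8529 and 7983 CPM in the untreated libraries. Of 14 macrophage markers 13 were higher, and the summed level of the list was 50593 to 56184 CPM in the TBI libraries and 5058 to 6165 CPM in the untreated libraries. Lyz2 and Apoe were its largest terms in both groups. Cd68, in this list, is also among the further lysosomal genes below. The bulk libraries do not tell a change in the mix of cells from a change of RNA within a cell: fewer cells of a type and less RNA per cell cannot be told apart. The core dendritic cell list summed to 37906 to 53882 CPM in the TBI libraries and 56579 to 57435 CPM in the untreated libraries. Its largest term was Cd74, which was not called and whose groups overlapped. The part of these lists in the results on lysosomal genes was not tested.

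Most lysosomal genes were more abundant after irradiation. With edgeR's quasi-likelihood test and Benjamini-Hochberg adjustment over 12046 genes, 25 of the 43 were higher in TBI libraries and 3 (Arsb, Gusb and Atp6v1d) were lower at an adjusted p under 0.05, and 15 were not called. Over all genes tested 13.3% were called higher and 9.79% lower. The median log2 fold change, TBI over untreated and also written log2 difference, was 0.66 for the 43 genes and -0.01 for all genes tested. All 43 passed the filter on low counts. In 32 of the 43 every TBI library lay above every untreated library, and in 6 every TBI library lay below, against 27.8% and 28.3% of all genes tested.

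The membrane proteins had the highest median, 0.89, with 5 of 6 called higher and 0 lower. For the V-ATPase the median was 0.63, with 7 of 13 higher and 1 lower, and for the hydrolase class it was 0.56, with 11 of 20 higher and 2 lower. The differences between these medians were not tested. This order was not kept in the further lysosomal genes listed below. There the median was 0.28 for 37 membrane proteins, 0.30 for 7 V-ATPase subunits and 0.39 for 39 enzymes and sorting proteins. With either untreated library left out the hydrolase class had 4 genes higher and 1 lower. Of the 28 called genes 8 differed at least 2-fold: Lgmn, Atp6v0d2, Lamp1, Tpp1, Lamp2, Atp6v0a1 and Acp2 upward, and Arsb downward. The gene lists were written from textbook knowledge of the lysosome with earlier results of these data known.

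**Figure D1:**
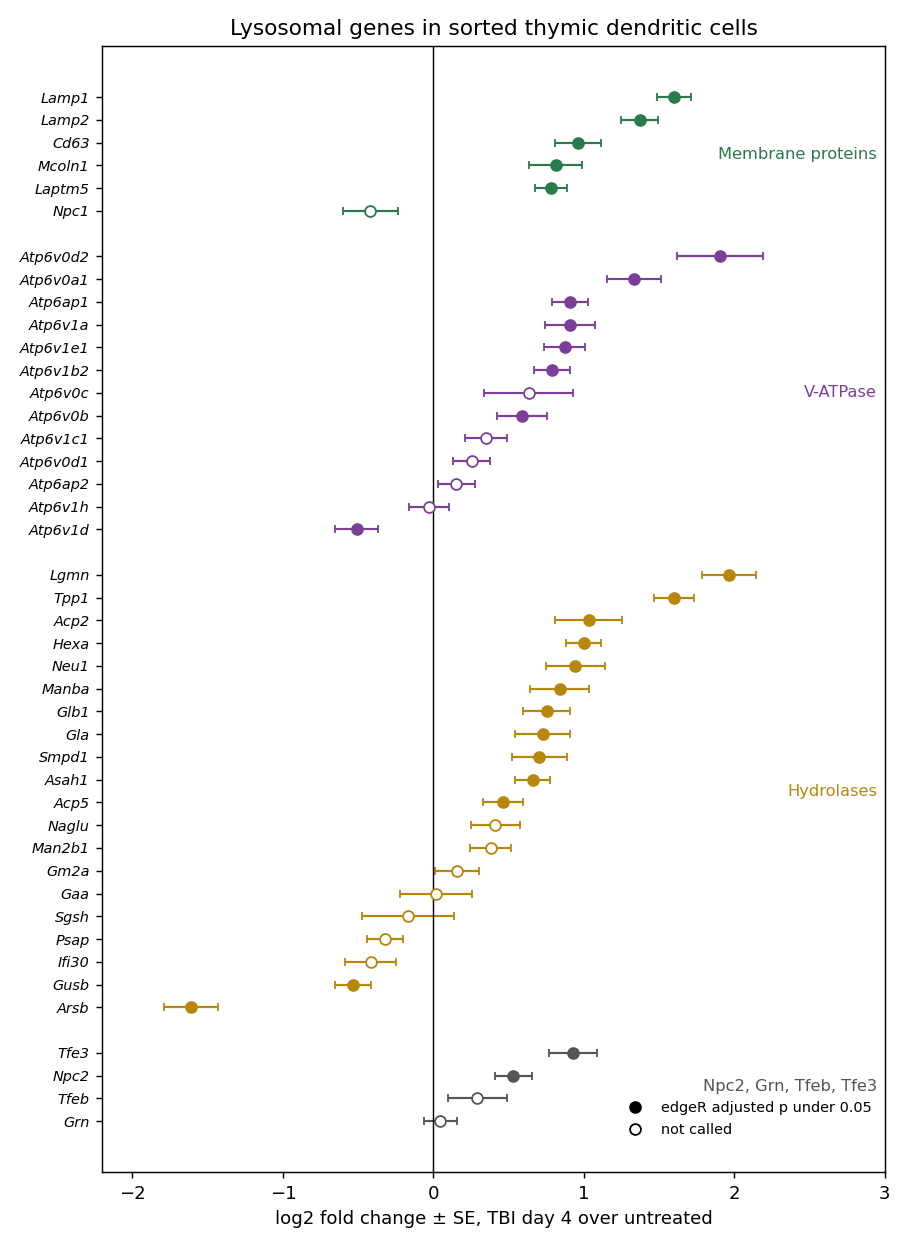
Log2 fold change with its standard error for each of the 43 lysosomal genes, TBI day 4 (3 libraries) over untreated (2 libraries), grouped by class and sorted within it; filled points passed an edgeR adjusted p of 0.05. Filled points lie right of zero for 25 genes and left of it for 3, and Lgmn, at 1.96, and Arsb, at -1.61, are the extremes.

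The split between rises and falls depended on the scaling. Counts were scaled by the trimmed mean of M-values (TMM), and scaling by library size alone moved the median of all genes tested to -0.23 and that of the 43 genes to 0.43. Under that scaling 19 of the 43 were higher and 6 lower, which made 76.0% of the calls upward ones, where TMM made 89.3%. Of the calls over all genes, 36.8% were upward with library size alone and 57.6% with TMM. Dropping untreated replicate 1 gave 14 genes higher and 1 lower, and dropping untreated replicate 2 gave 12 and 1. With a single untreated library left, calls over all genes also fell, to 815 higher and 423 lower and to 810 and 423, against 1599 and 1179 with all libraries. Dropping TBI replicate 1 gave 2148 and 1780. No called gene changed sign under any of 13 alternative settings, which changed the scaling, the filter or the test, added the replicate number as a block or left out 1 library, and 11 of the 28 kept their call in all of them: Lamp1, Lamp2, Laptm5, Atp6v0a1, Atp6v0d2, Atp6v1e1, Atp6ap1, Hexa, Lgmn, Tpp1 and Arsb.

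**Figure D2:**
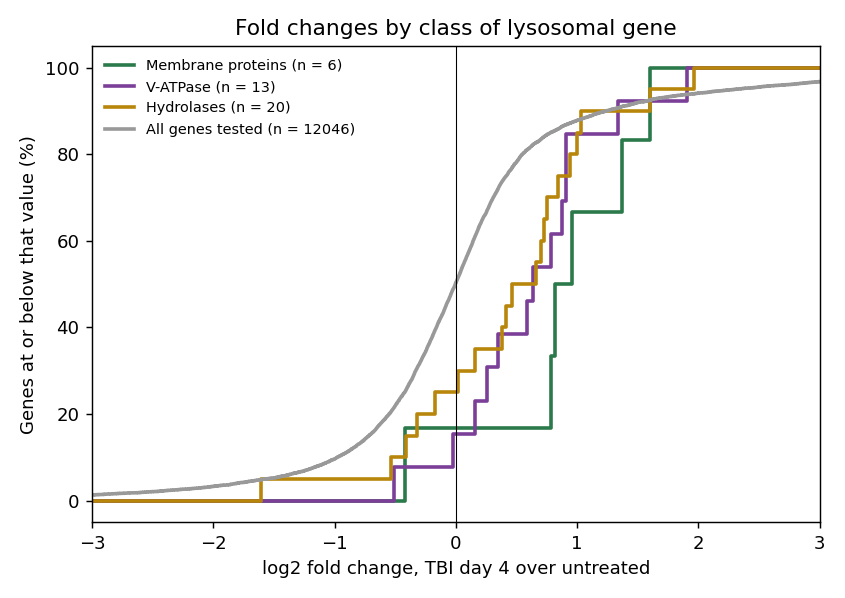
Cumulative share of genes (vertical axis, %) at or below each log2 fold change, TBI day 4 over untreated (horizontal axis), for membrane proteins, V-ATPase genes, the hydrolase class and all 12046 genes tested. The 3 lysosomal curves run to the right of the curve of all genes between the medians, which are 0.89, 0.63, 0.56 and -0.01.

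Among the membrane proteins, the main structural glycoproteins of the lysosomal membrane rose the most. Lamp1 (chromosome 8, 13159161 to 13175338 in GRCm38, the build also called mm10) had 1485, 1507 and 1581 CPM in the TBI libraries, against 521 and 485 CPM in the untreated libraries. Lamp2, its paralogue, which also serves as receptor in chaperone-mediated autophagy, had 700.2, 733 and 683 CPM in the TBI libraries, against 259 and 286 CPM in the untreated libraries. Neither gene's groups overlapped, and the libraries within each group lay close together. Lamp1 had a log2 difference of 1.60 ± 0.12 (SE; adjusted p = 3.49e-05 by edgeR), about 3.03-fold, and Lamp2 a log2 difference of 1.37 ± 0.12 (SE; adjusted p = 0.000123 by edgeR), about 2.59-fold. Lamp2 lies on chromosome X, 38401357 to 38456454. Lamp1 shares 7.11% of its 50-base stretches with Grtp1, which had 9, 1 and 0 counts in TBI libraries against 4 and 2 in untreated libraries.

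Cd63, a tetraspanin of late endosomes and lysosomes, had 304, 309 and 303 CPM in the TBI libraries, against 178 and 135 CPM in the untreated libraries, and the TBI libraries differed by far less than the untreated pair. Cd63 shares 24.6% of its 50-base stretches with the pseudogene Cd63-ps. Its log2 difference of 0.96 ± 0.15 (SE; adjusted p = 0.0025 by edgeR) did not pass without untreated replicate 2 (adjusted p = 0.0502; 2.26e-07 to 0.0502 over all 13 alternatives). Laptm5, a lysosomal transmembrane protein of blood cells, was the most abundant of the class per kb of exon and had 4406, 4276 and 3894 CPM in the TBI libraries, against 2398 and 2471 CPM in the untreated libraries, with a log2 difference of 0.78 ± 0.11 (SE; adjusted p = 0.00116 by edgeR). Mcoln1, the lysosomal calcium channel TRPML1, had 49.8, 57.5 and 52.2 CPM in the TBI libraries, against 31.4 and 29.1 CPM in the untreated libraries. It had a log2 difference of 0.81 ± 0.18 (SE; adjusted p = 0.0118 by edgeR) and did not pass without untreated replicate 1 (adjusted p = 0.118) or untreated replicate 2 (0.169; 0.000706 to 0.169 over all 13). Leaving out untreated replicate 2 therefore left 3 membrane genes called, Lamp1, Lamp2 and Laptm5.

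Npc1, the membrane protein that exports cholesterol from the lysosome, did not follow the others. It had 39.9, 47.3 and 38.8 CPM in the TBI libraries, against 61.5 and 50.8 CPM in the untreated libraries: each TBI library lay below both untreated libraries, but its log2 fold change of -0.42 ± 0.18 was not called (adjusted p = 0.141), and it was called lower with library size alone (adjusted p = 0.0332). Npc2, the soluble lumenal protein that hands cholesterol to NPC1, rose, with 567, 525 and 493 CPM in the TBI libraries, against 373 and 359 CPM in the untreated libraries and a log2 difference of 0.53 ± 0.12 (SE; adjusted p = 0.0165 by edgeR). Its call was lost with library size alone (log2 fold change 0.30, adjusted p = 0.0791), with either untreated library left out (adjusted p = 0.137 and 0.184 without replicates 1 and 2) and without TBI day 4 replicate 2 (0.0552; 0.000748 to 0.184 over all 13). The difference between the fold changes of Npc1 and Npc2 was not tested. Npc1 shares 8.95% of its 50-base stretches with Rmc1 and Gm15956, which are not rows of the count table.

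**Figure D3:**
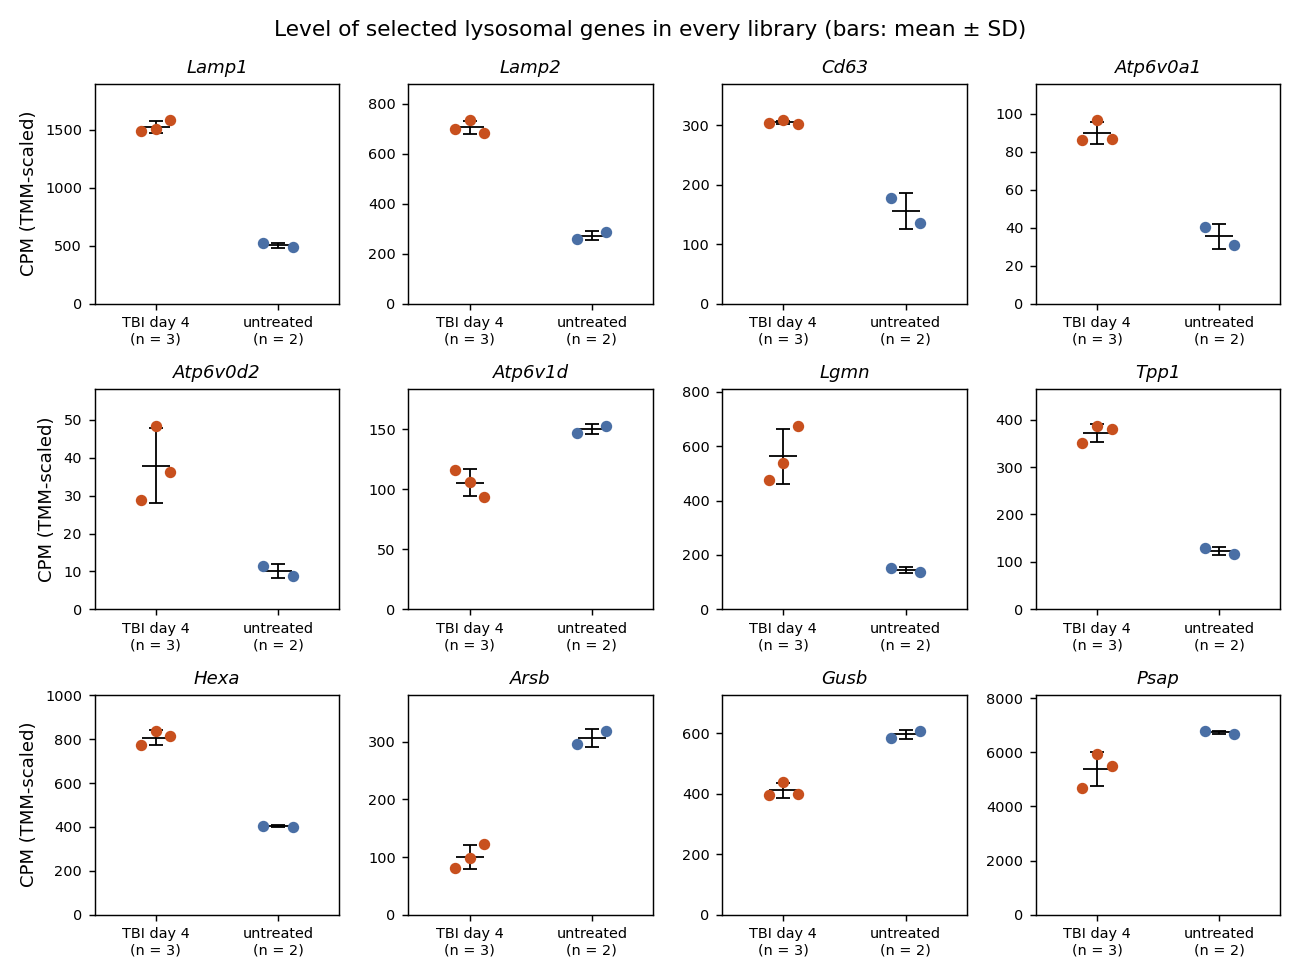
Level of 12 lysosomal genes in each library as TMM-scaled CPM (each vertical axis starts at 0), with the mean and SD of each group; TBI day 4 has 3 libraries and untreated 2. The groups do not overlap in any panel, with Atp6v1d, Arsb, Gusb and Psap lower and the other 8 genes higher in TBI libraries.

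Of the 13 V-ATPase genes 7 rose, 1 (Atp6v1d) fell and 5 did not pass. Their summed level was 2792 to 3082 CPM in the TBI libraries and 1978 to 2003 CPM in the untreated libraries. In the V0 sector 3 of 5 genes were higher and 0 lower, in the V1 sector 3 of 6 were higher and 1 lower, and of the accessory genes 1 of 2 was higher. In 11 of the 13 all TBI libraries lay above all untreated ones, and over all genes tested 27.8% did so.

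The largest V-ATPase difference was in Atp6v0d2, an alternative form of the d subunit that joins the V1 rotor to V0 and is known from osteoclasts and macrophages. Atp6v0d2 (chromosome 4, 19876841 to 19922605) had 28.9, 48.4 and 36.4 CPM in the TBI libraries, against 11.4 and 8.86 CPM in the untreated libraries, with raw counts of 200, 382 and 278 in TBI libraries against 92 and 70 in untreated ones. All TBI libraries lay above the untreated ones but spread widely among themselves. It had a log2 difference of 1.91 ± 0.29 (SE; adjusted p = 0.00191 by edgeR). The ubiquitous form, Atp6v0d1, had 198, 191 and 180.5 CPM in the TBI libraries, against 161 and 157 CPM in the untreated libraries and was not called (log2 fold change 0.25 ± 0.13, adjusted p = 0.186). Per kb of exon, Atp6v0d2 made up 8.80%, 14.3% and 11.7% of the d-subunit level in TBI libraries, against 4.46% and 3.58% in untreated libraries. Atp6v0d1 was thus the more abundant form in every library. Of 7 listed osteoclast genes 5 were tested. Among these, 1 (Ctsk, a collagen-degrading protease) was higher and 1 (Ocstamp, a cell-fusion protein) lower, against 13.3% and 9.79% of all genes tested. Without untreated replicate 1 neither was called, and without untreated replicate 2 or TBI replicate 2 Ctsk alone was. The summed level of the osteoclast list was 185 to 230.4 CPM in the TBI libraries and 286 to 317 CPM in the untreated libraries.

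Among the other V0 genes, Atp6v0a1, one of the forms of the membrane subunit that forms the proton path, had 86.4, 96.6 and 86.7 CPM in the TBI libraries, against 40.3 and 31.01 CPM in the untreated libraries, with a log2 difference of 1.33 ± 0.18 (SE; adjusted p = 0.00109 by edgeR). Atp6v0b, a proteolipid of the membrane ring, had 304, 262 and 215 CPM in the TBI libraries, against 169.9 and 176 CPM in the untreated libraries and a log2 difference of 0.59 ± 0.17 (SE; adjusted p = 0.0349 by edgeR). This call was lost under upper quartile scaling (adjusted p = 0.0502), with library size alone (log2 fold change 0.36, adjusted p = 0.115), with either untreated library left out (0.234 and 0.194 without replicates 1 and 2) and without TBI day 4 replicate 2 (0.0961; 0.00895 to 0.234 over all 13). Atp6v0c, the main proteolipid of the ring, was counted at only 9.12, 10.01 and 8.50 CPM in the TBI libraries, against 6.30 and 5.57 CPM in the untreated libraries and was not called (log2 fold change 0.63 ± 0.30, adjusted p = 0.168). Of its transcripts' 50-base stretches, 27.1% also occur in transcripts of the pseudogenes Atp6v0c-ps2 and Atp6v0c-ps1, so its counts are uncertain.

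In V1, the ATP-hydrolysing A and B subunits rose together. Atp6v1a had 222, 298 and 279.6 CPM in the TBI libraries, against 133 and 151 CPM in the untreated libraries, and Atp6v1b2 had 401, 424 and 399 CPM in the TBI libraries, against 243 and 229.8 CPM in the untreated libraries. Atp6v1e1, a subunit of the peripheral stalk, had 267, 246 and 219 CPM in the TBI libraries, against 134 and 133 CPM in the untreated libraries. No TBI library of the 3 genes fell into the untreated range. The log2 fold changes were 0.91 ± 0.16 for Atp6v1a (edgeR adjusted p = 0.00498), 0.79 ± 0.12 for Atp6v1b2 (adjusted p = 0.00218) and 0.87 ± 0.14 for Atp6v1e1 (adjusted p = 0.00265). Atp6v1a did not pass without untreated replicate 1 (adjusted p = 0.0742; 1.07e-05 to 0.0742 over all 13), and Atp6v1b2 did not pass without untreated replicate 2 (0.0521; 3.76e-08 to 0.0521 over all 13).

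Subunit D, the central rotor shaft of V1, moved the other way. Atp6v1d (chromosome 12, 78840725 to 78861638) had 116, 106 and 93.5 CPM in the TBI libraries, against 147 and 153 CPM in the untreated libraries, with every TBI library below the untreated pair, and a log2 difference of -0.51 ± 0.14 (SE; adjusted p = 0.0343 by edgeR). It was not called with the replicate block (adjusted p = 0.111), with either untreated library left out (0.214 and 0.28 without replicates 1 and 2), without TBI day 4 replicate 2 (0.0911) or without TBI day 4 replicate 3 (0.0717; 0.00285 to 0.28 over all 13). Atp6v1h, the regulatory subunit that couples ATP hydrolysis to transport, averaged 137 ± 11.5 CPM in TBI libraries and 140.1 ± 0.539 CPM in untreated libraries (SD, n = 3 and n = 2; log2 fold change -0.028 ± 0.13, adjusted p = 0.903), and its groups overlapped. Atp6v1c1, a subunit at the interface of the sectors, had 133, 157 and 152 CPM in the TBI libraries, against 118 and 113 CPM in the untreated libraries and was not called (log2 fold change 0.35 ± 0.14, adjusted p = 0.107), although it passed without TBI day 4 replicate 1 (adjusted p = 0.00874).

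The accessory genes also differed from each other. Atp6ap1, an accessory protein needed for assembly of the pump, had 701, 720.0 and 664 CPM in the TBI libraries, against 355 and 384 CPM in the untreated libraries, with a log2 difference of 0.91 ± 0.12 (SE; adjusted p = 0.000976 by edgeR). Atp6ap2, also called the prorenin receptor, had 353, 380.4 and 334 CPM in the TBI libraries, against 319.7 and 320.0 CPM in the untreated libraries and was not called (log2 fold change 0.15 ± 0.12, adjusted p = 0.417). Their difference was not tested. Other subunit genes were listed for comparison: of 14, 11 were in the table, 7 passed the low-count filter, and 0 were called by edgeR in either direction, while the DESeq2 Wald test called Tcirg1 higher and Atp6v0a2 lower. The unadjusted p was under 0.05 for 2 of the 7. Tcirg1, the a3 form of the membrane subunit that is known from osteoclast lysosomes, had 126, 116 and 117 CPM in the TBI libraries, against 91.2 and 90.3 CPM in the untreated libraries (log2 fold change 0.40 ± 0.13, adjusted p = 0.0648; 0.019 to 0.401 over the 13 alternatives), and it was called higher with the DESeq2 Wald test (0.0425) and without TBI day 4 replicate 1 (0.019). Atp6v0a2, the a2 form, had 128, 184 and 187 CPM in the TBI libraries, against 234 and 247 CPM in the untreated libraries (log2 fold change -0.53 ± 0.18, adjusted p = 0.0683; 0.0125 to 0.328 over the 13 alternatives). All TBI libraries lay below the untreated pair, and Atp6v0a2 was called lower by edgeR with library size alone (0.0217), with upper quartile scaling (0.0483), with the replicate block (0.0299) and without TBI day 4 replicate 1 (0.0125), and by the DESeq2 Wald test (0.0394). Atp6v0e, a small membrane subunit, had 514, 376 and 345 CPM in the TBI libraries, against 326 and 318 CPM in the untreated libraries (log2 fold change 0.35 ± 0.18, adjusted p = 0.2).

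Of the 9 glycosidases 5 were higher (Hexa, Gla, Glb1, Manba and Neu1), 1 was lower (Gusb) and 3 were not called (Gaa, Man2b1 and Naglu). Hexa, the alpha subunit of beta-hexosaminidase, which is lost in Tay-Sachs disease, had 771, 835 and 815 CPM in the TBI libraries, against 406 and 402 CPM in the untreated libraries. Neu1, a sialidase, had 87.3, 129 and 113 CPM in the TBI libraries, against 53.01 and 61.3 CPM in the untreated libraries. Glb1, the lysosomal beta-galactosidase, had 129.5, 148 and 121 CPM in the TBI libraries, against 85.1 and 72.5 CPM in the untreated libraries. The groups did not overlap in these 3 genes, and TBI replicate 1 was the lowest TBI library for Hexa and Neu1. Hexa shares 10.6% of its 50-base stretches with Tmem202, which had 21, 14 and 16 counts in TBI libraries against 1 and 2 in untreated libraries. Hexa had a log2 difference of 0.999 ± 0.12 (SE; adjusted p = 0.000493 by edgeR), Neu1 a log2 difference of 0.94 ± 0.20 (SE; adjusted p = 0.01 by edgeR) and Glb1 a log2 difference of 0.75 ± 0.16 (SE; adjusted p = 0.0101 by edgeR).

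Manba, a beta-mannosidase, had 86.7, 74.5 and 91.4 CPM in the TBI libraries, against 54.7 and 39.2 CPM in the untreated libraries (log2 fold change 0.84 ± 0.20, adjusted p = 0.0166). Gla, the alpha-galactosidase lost in Fabry disease, had 101, 92.03 and 112 CPM in the TBI libraries, against 51.9 and 70.9 CPM in the untreated libraries (log2 fold change 0.73 ± 0.18, adjusted p = 0.023). In both genes the untreated libraries lay apart from each other, below all TBI libraries. Neu1 and Glb1 were not called with either untreated library left out (adjusted p = 0.117 and 0.0621 without replicate 1, 0.057 and 0.164 without replicate 2), Manba was not called with library size alone (0.0533), without untreated replicate 2 (0.215) or without TBI day 4 replicate 3 (0.0509), and Gla was not called with library size alone (0.0789), with the replicate block (0.05005), without untreated replicate 1 (0.274) or without TBI day 4 replicate 3 (0.062). Over all 13 alternatives the adjusted p ran from 0.000229 to 0.117 for Neu1, 0.00038 to 0.164 for Glb1, 0.00121 to 0.215 for Manba and 0.00338 to 0.274 for Gla.

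Gusb, the beta-glucuronidase, was lower in the TBI libraries. It had 395, 439.6 and 400.4 CPM in the TBI libraries, against 586 and 606 CPM in the untreated libraries, so that each TBI library lay below both untreated ones, with a log2 difference of -0.53 ± 0.12 (SE; adjusted p = 0.0127 by edgeR). It did not pass with either untreated library left out (adjusted p = 0.109 and 0.152 without replicates 1 and 2; 0.000383 to 0.152 over all 13). Gaa, the acid alpha-glucosidase that degrades glycogen and is lost in Pompe disease, had 85.5, 155 and 148 CPM in the TBI libraries, against 131 and 126 CPM in the untreated libraries: TBI replicate 1 lay below the untreated pair and the other TBI libraries above it (log2 fold change 0.017 ± 0.24, adjusted p = 0.968), and its sign changed under 7 of the 13 alternatives. Man2b1, an alpha-mannosidase, had 967, 1224 and 1140.2 CPM in the TBI libraries, against 831 and 876 CPM in the untreated libraries, and was not called (log2 fold change 0.38 ± 0.13, adjusted p = 0.0763), although it was called without TBI day 4 replicate 1 (adjusted p = 0.00403). Naglu, an enzyme of heparan sulphate breakdown, averaged 95.8 ± 5.82 CPM in TBI libraries and 72.1 ± 12.4 CPM in untreated libraries (SD, n = 3 and n = 2) and was not called (log2 fold change 0.41 ± 0.16, adjusted p = 0.109).

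Of the 2 sulphatases among the 43 genes, Arsb fell and Sgsh did not pass. Arsb, the arylsulphatase that removes sulphate from dermatan and chondroitin sulphate, showed the largest fall of the 43. Arsb (chromosome 13, 93771630 to 93943016) had 80.7, 97.7 and 123 CPM in the TBI libraries, against 296 and 318 CPM in the untreated libraries, with raw counts of 558, 771 and 941 in TBI libraries against 2397 and 2513 in untreated ones. All TBI libraries lay far below the untreated pair, with TBI replicate 1 the lowest. It had a log2 difference of -1.61 ± 0.18 (SE; adjusted p = 0.000396 by edgeR), called under all 13 alternatives. Exons of Arsb overlap those of the annotated genes Gm26527 and Gm47210, which are not rows of the count table. Of its transcripts' 50-base stretches, 46.6% occur in Gm26527, 10.4% in Gm47210, 0.702% in Sympk and 0.125% in Xkrx. Sympk had 115, 172 and 251 counts in TBI libraries against 259 and 245 in untreated libraries, and Xkrx had 6, 45 and 10 counts in TBI libraries against 284 and 285 in untreated libraries. The part of shared reads in the value of Arsb was not tested. Sgsh, the heparan N-sulphatase, averaged 17.7 ± 6.57 CPM in TBI libraries and 19.9 ± 0.163 CPM in untreated libraries (SD, n = 3 and n = 2), with TBI replicate 3 above and the other TBI libraries below the untreated pair (log2 fold change -0.17 ± 0.31, adjusted p = 0.73). It shares 19.8% of its 50-base stretches with Card14, which had 0 counts in every library. Among sulphatases outside the 43 genes, Arsg, Arsa and Galns were higher. Arsg had 18.1, 17.6 and 18.8 CPM in the TBI libraries, against 5.07 and 3.42 CPM in the untreated libraries, with a log2 difference of 2.09 ± 0.29 (SE; adjusted p = 0.00117 by edgeR). Arsa, which acts on sulphatide, had 41.4, 57.3 and 67.1 CPM in the TBI libraries, against 25.7 and 27.6 CPM in the untreated libraries, with a log2 difference of 1.05 ± 0.24 (SE; adjusted p = 0.0139 by edgeR). Galns, which acts on keratan and chondroitin sulphate, had 36.6, 46.01 and 36.9 CPM in the TBI libraries, against 20.9 and 23.04 CPM in the untreated libraries, with a log2 difference of 0.86 ± 0.20 (SE; adjusted p = 0.0181 by edgeR). All TBI libraries of these 3 genes lay above the untreated pair. Arsg was called under all 13 alternatives. Arsa was not called with either untreated library left out (adjusted p = 0.128 and 0.0969 without replicates 1 and 2; 0.000439 to 0.128 over all 13). Galns was not called in those settings (0.199 and 0.137; 0.00287 to 0.199 over all 13), with library size alone (0.0509) or without TBI day 4 replicate 2 (0.0518). Ids was not called, with a log2 fold change of 0.41 ± 0.15 (adjusted p = 0.0889), and passed upward without TBI day 4 replicate 1 (adjusted p = 0.00804).

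Sphingolipid enzymes rose while their activator proteins did not pass. Asah1, the acid ceramidase, had 503, 513 and 509 CPM in the TBI libraries, against 328 and 315 CPM in the untreated libraries, and Smpd1, the acid sphingomyelinase, had 60.8, 52.2 and 48.5 CPM in the TBI libraries, against 32.6 and 33.4 CPM in the untreated libraries. The groups were apart in both, and the TBI libraries of Asah1 differed by only 0.959% of their mean (SD). Asah1 had a log2 difference of 0.66 ± 0.12 (SE; adjusted p = 0.00429 by edgeR) and Smpd1 a log2 difference of 0.70 ± 0.18 (SE; adjusted p = 0.0251 by edgeR). Asah1 was not called with either untreated library left out (adjusted p = 0.0615 and 0.0866 without replicates 1 and 2; 1.24e-06 to 0.0866 over all 13), and its log2 fold change was 0.43 with library size alone. Smpd1 was not called in those settings (0.226 and 0.203; 0.00558 to 0.226 over all 13), without TBI day 4 replicate 2 (0.0581) or with library size alone (0.0775).

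Psap, the precursor of the saposins that present sphingolipids to their hydrolases, was the most abundant of the 43 genes in both groups, by CPM and per kb of exon. It had 4689, 5949.6 and 5503 CPM in the TBI libraries, against 6776 and 6689 CPM in the untreated libraries: each TBI library was below the untreated pair, and TBI replicate 1 was the lowest. Its log2 fold change of -0.32 ± 0.12 did not pass (adjusted p = 0.0879), but did with library size alone (adjusted p = 0.0114). Gm2a, the activator that lifts GM2 ganglioside for beta-hexosaminidase, had 1754, 1697 and 1326 CPM in the TBI libraries, against 1342 and 1516 CPM in the untreated libraries and was not called (log2 fold change 0.16 ± 0.15, adjusted p = 0.494). The summed level of the sphingolipid genes was 7008 to 8212 CPM in the TBI libraries and 8479 to 8554 CPM in the untreated libraries, with Psap the largest term. The summed level of the whole hydrolase class, Psap included, overlapped between groups, at 11103 to 12928 CPM in the TBI libraries and 11801 to 11866 CPM in the untreated libraries.

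The largest rises of the hydrolase class were in proteases. Lgmn, the asparagine endopeptidase legumain, which cleaves antigens and activates cathepsins, had 477, 539 and 675 CPM in the TBI libraries, against 153 and 136 CPM in the untreated libraries. Tpp1, a tripeptidyl peptidase, had 351, 387 and 379.8 CPM in the TBI libraries, against 129 and 117 CPM in the untreated libraries. All TBI libraries lay far above both untreated ones in both genes, and for Lgmn they also spread, with TBI replicate 3 the highest. Lgmn (chromosome 12, 102394084 to 102439813) had a log2 difference of 1.96 ± 0.18 (SE; adjusted p = 0.000133 by edgeR), about 3.90-fold, and Tpp1 (chromosome 7, 105744811 to 105752235) a log2 difference of 1.60 ± 0.13 (SE; adjusted p = 8.02e-05 by edgeR), about 3.03-fold.

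Ifi30, the interferon-inducible thiol reductase GILT, which opens disulphide bonds of antigens in the MHC class II pathway, had 218, 196 and 152 CPM in the TBI libraries, against 267 and 236 CPM in the untreated libraries. All TBI libraries lay below the untreated pair, but its log2 fold change of -0.42 ± 0.17 did not pass (adjusted p = 0.118). It was called lower with library size alone (adjusted p = 0.0195) and without TBI day 4 replicate 1 (0.0161). Both lysosomal acid phosphatases were higher. Acp2 had 81.2, 123 and 132 CPM in the TBI libraries, against 56.1 and 53.8 CPM in the untreated libraries, and Acp5, the tartrate-resistant form known from osteoclasts and macrophages, had 147, 168 and 170.1 CPM in the TBI libraries, against 120.3 and 115 CPM in the untreated libraries. The groups were apart, and TBI replicate 1 was the lowest TBI library in both.

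Acp2 had a log2 difference of 1.03 ± 0.22 (SE; adjusted p = 0.0116 by edgeR) and was not called with either untreated library left out (adjusted p = 0.0779 and 0.0962 without replicates 1 and 2; 4.83e-05 to 0.0962 over all 13). Exons of Acp2 share 652 bases with Ddb2, a DNA damage recognition gene on the opposite strand, which had 58, 34 and 50 counts in TBI libraries against 28 and 31 in untreated libraries and was not called. Acp5 had a log2 difference of 0.46 ± 0.14 (SE; adjusted p = 0.0409 by edgeR), but this rested on the settings: 8 of the 13 alternatives ended the call, with a log2 fold change of 0.24 for library size alone (adjusted p = 0.239) and adjusted p-values of 0.251, 0.344, 0.115 and 0.0792 without untreated replicates 1 and 2 and TBI replicates 2 and 3. Its adjusted p ran from 0.00262 to 0.344 over all 13. Acp5 shares 5.52% of its 50-base stretches with 6530413G14Rik, which is not a row of the count table. Grn, the precursor of the granulins, had 1923, 2175 and 2191 CPM in the TBI libraries, against 2029 and 2031 CPM in the untreated libraries, with overlapping groups (log2 fold change 0.046 ± 0.11, adjusted p = 0.799).

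**Figure D4:**
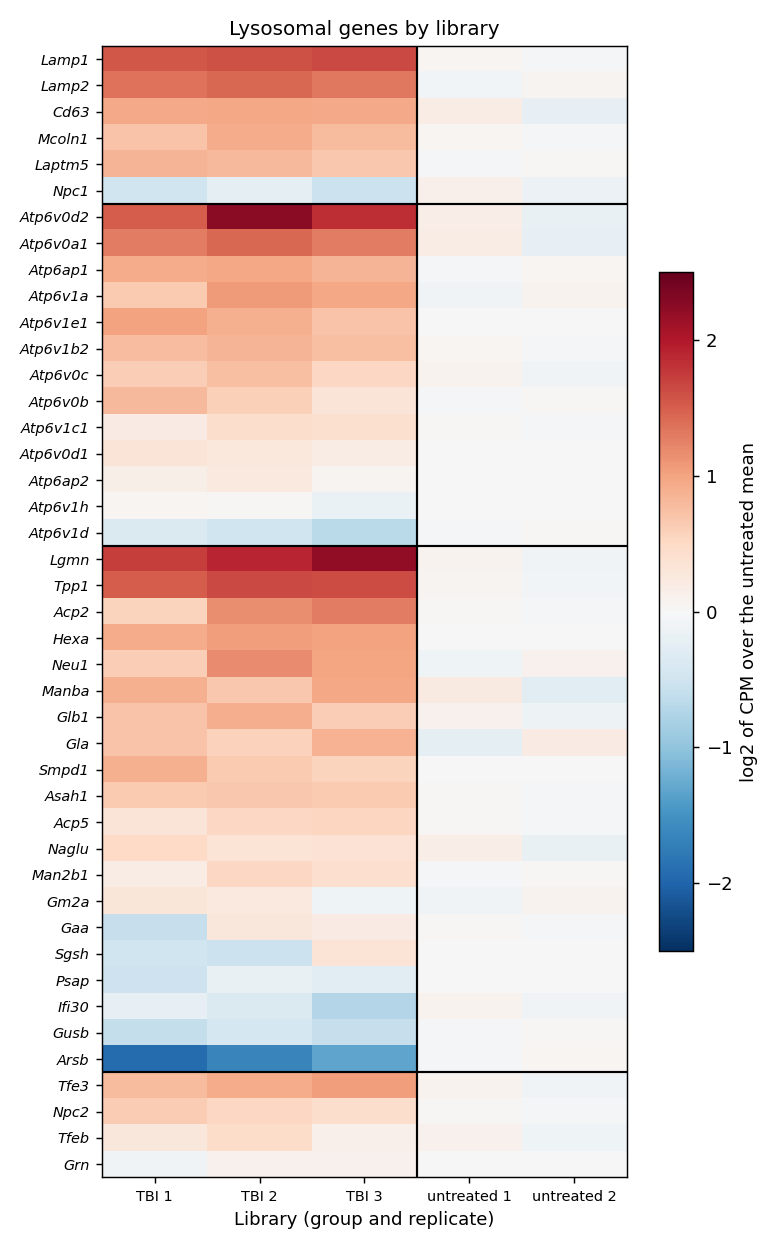
Log2 of the CPM of each library over the untreated mean for the 43 lysosomal genes (rows, grouped as membrane, V-ATPase, hydrolase class, and Npc2, Grn, Tfeb and Tfe3), with the 3 TBI libraries left of the 2 untreated ones. Red rows show genes above the untreated mean, and Gaa and Sgsh are the rows in which TBI libraries fall on both sides of it by the most.

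Of the transcription factors, Tfe3 rose and Tfeb did not pass. Tfe3 had 87.7, 95.4 and 104 CPM in the TBI libraries, against 53.5 and 47.2 CPM in the untreated libraries, and Tfeb had 37.3, 42.2 and 33.3 CPM in the TBI libraries, against 32.99 and 28.5 CPM in the untreated libraries. The groups were apart in both, but for Tfeb the lowest TBI library was close to the higher untreated one. Tfe3 had a log2 difference of 0.93 ± 0.16 (SE; adjusted p = 0.00389 by edgeR) and was not called without untreated replicate 2 (adjusted p = 0.0828; 6.95e-06 to 0.0828 over all 13). Tfeb had a log2 fold change of 0.29 ± 0.20 (adjusted p = 0.329). The difference between them was not tested, and activity of these factors is set largely by phosphorylation and nuclear entry, which RNA does not show. Of 8 other listed MiT family members and regulators, 7 were tested, 2 were higher and 0 lower. These calls made 28.6% of the genes tested in that list, against 23.1% over all genes tested. Mitf, a MiT family member of macrophages and osteoclasts, had 6.80, 7.35 and 8.11 CPM in the TBI libraries, against 2.35 and 1.14 CPM in the untreated libraries (2.08 ± 0.46, adjusted p = 0.0129), and Ppp3ca, a catalytic subunit of the phosphatase calcineurin, which dephosphorylates TFEB, had 111, 125 and 112 CPM in the TBI libraries, against 65.4 and 73.5 CPM in the untreated libraries (0.74 ± 0.15, adjusted p = 0.00787). Without untreated replicate 1 there was 1 of these higher, and without untreated replicate 2 there were 0.

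Promoter sequences show where letters bound by these factors occur. Windows of 300 bases, 250 before to 50 after an annotated start, came from RefSeq (GRCm38.p6) and matched 37 of the 43 genes by symbol. The palindrome TCACGTGA, the core of the CLEAR element bound by TFEB and TFE3, was found on either strand for 5 of the 37 genes (13.5%: Atp6v0d1, Atp6v1a, Mcoln1, Gla and Ifi30), against 1.12% of 27025 genes in the promoter table and 2.23% of the 9276 tested genes in it. The shorter E-box CACGTG, which lies within that palindrome, was found for 12 of the 37 (32.4%), against 8.09% of all genes and 11.7% of tested genes. The related M-box TCATGTGA, on either strand, was found for 5 of the 37 (13.5%: Atp6v0c, Gla, Tpp1, Acp5 and Grn), against 1.15% of all genes and 0.97% of tested genes. These are counts of letters, not of bound sites.

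For each class the window of the gene with the smallest p among those with the palindrome is shown, written 5′ to 3′ on the strand of the gene, with TCACGTGA in capitals. Counted from the 5′ end of the window, the first copy begins at base 119 in Atp6v1a, 205 in Mcoln1 and 23 in Gla, which holds 2 copies.
Atp6v1a, chr16:44139210-44139509, minus strand: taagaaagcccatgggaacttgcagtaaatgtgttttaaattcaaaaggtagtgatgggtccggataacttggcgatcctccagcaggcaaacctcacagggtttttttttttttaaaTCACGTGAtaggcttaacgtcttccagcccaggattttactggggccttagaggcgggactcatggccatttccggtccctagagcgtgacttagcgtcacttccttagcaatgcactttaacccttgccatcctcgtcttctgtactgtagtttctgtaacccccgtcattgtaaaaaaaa
Mcoln1, chr8:3500269-3500568, plus strand: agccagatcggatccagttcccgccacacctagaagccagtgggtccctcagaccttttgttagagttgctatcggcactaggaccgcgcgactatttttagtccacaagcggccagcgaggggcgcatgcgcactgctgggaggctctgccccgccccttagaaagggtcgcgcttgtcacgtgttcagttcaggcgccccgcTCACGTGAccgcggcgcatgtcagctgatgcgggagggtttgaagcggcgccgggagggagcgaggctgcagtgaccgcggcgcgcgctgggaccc
Gla, chrX:134600956-134601255, minus strand: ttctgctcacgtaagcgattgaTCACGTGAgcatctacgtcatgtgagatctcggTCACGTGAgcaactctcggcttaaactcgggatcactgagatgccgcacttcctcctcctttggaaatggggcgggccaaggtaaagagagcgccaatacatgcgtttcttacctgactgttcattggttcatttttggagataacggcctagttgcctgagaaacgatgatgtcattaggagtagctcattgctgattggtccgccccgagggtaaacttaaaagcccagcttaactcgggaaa

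Atp6v1a, Mcoln1 and Gla, which were chosen by their p, were all higher in TBI libraries. The other genes with TCACGTGA, Atp6v0d1 and Ifi30, were not called. Genes called higher and the rest held the letters in similar shares. TCACGTGA was present in 3 of 22 genes called higher (13.6%) and in 2 of the 15 others (13.3%). CACGTG was present in 7 of the 22 (31.8%) and 5 of the 15 (33.3%). The 7 were Lgmn, Lamp1, Atp6v1a, Mcoln1, Glb1, Gla and Atp6v0b. Over all tested genes in the promoter table, 11.1% of the 207 with TCACGTGA were called higher, against 13.1% of the 9069 without it. For CACGTG these shares were 12.8% of 1084 with it and 13.1% of 8192 without it. The M-box shares were 21.1% of 90 with it and 13.0% of 9186 without it. Among the lysosomal genes, the M-box was present in 3 of the 22 called higher (13.6%) and 2 of the 15 others (13.3%).

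The 43 genes spanned a wide range of levels. Per kb of summed exon length in GENCODE M21, which counts every annotated exon and so understates genes with long rare isoforms, Psap had 1961 CPM per kb in TBI libraries and 2453 in untreated libraries, Laptm5 1107 CPM per kb in TBI libraries and 643 in untreated libraries and Grn 603 CPM per kb in TBI libraries and 584 in untreated libraries. These 3 ranked highest in both groups. Lamp1 ranked 4 of 43 in TBI libraries and 7 in untreated ones, with 569.8 CPM per kb in TBI libraries and 188 in untreated libraries. Lgmn ranked 7 in TBI libraries and 16 in untreated ones, with 243 CPM per kb in TBI libraries and 62.2 in untreated libraries. Arsb ranked 32 in TBI libraries and 18 in untreated ones, with 16.6 CPM per kb in TBI libraries and 50.9 in untreated libraries. At the low end stood Atp6v0c, Npc1 and Sgsh in the TBI libraries, and Atp6v0c, Atp6v0d2 and Mcoln1 in the untreated ones. The rank of Atp6v0c is uncertain, because 27.1% of its 50-base stretches also occur in pseudogenes.

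The genes also varied among the TBI libraries. The SD was 8.77% of the mean for the median gene, and it exceeded 20% for 5 genes, Sgsh, Gaa, Atp6v0d2, Acp2 and Arsb. TBI replicate 1 was the lowest TBI library for 20 genes and the highest for 11, TBI replicate 2 the lowest for 4 and the highest for 22, and TBI replicate 3 the lowest for 19 and the highest for 10. Without TBI replicate 1, 27 of the 43 genes were called higher and 4 lower, Ifi30 among them, and the median log2 fold change was 0.64. Their positions are scattered: the 43 genes lie on 18 chromosomes, and 3 pairs lie within 1000000 bases of each other, Atp6v0a1 and Naglu, Gaa and Sgsh, and Smpd1 and Tpp1.

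The rest of the lysosomal pathway was read from 5 lists of 120 further genes, of which 114 were in the table and 108 passed the filter. Of these 108, 31 were higher and 10 lower, against 13.3% and 9.79% of all genes tested. The median log2 fold change of the 108 was 0.29, and with library size alone 22 were higher and 18 lower. Leaving out untreated replicate 1 gave 16 and 6, leaving out untreated replicate 2 gave 15 and 6, and leaving out TBI replicate 1 gave 44 and 15. Of 39 tested enzymes and sorting proteins 17 were higher and 6 lower (9 and 5 with either untreated library left out), of 37 membrane proteins 9 were higher and 2 lower (6 and 1 with either left out), and of 18 nutrient-sensing genes 3 were higher and 2 lower (0 and 0 with either left out, 1 and 2 without TBI replicate 2, 2 and 1 without TBI replicate 3, 5 and 3 without TBI replicate 1).

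Smpdl3a, a nucleotide phosphodiesterase related to Smpd1, had 457, 478 and 441 CPM in the TBI libraries, against 73.6 and 86.3 CPM in the untreated libraries, with a log2 difference of 2.52 ± 0.14 (SE; adjusted p = 1.30e-05 by edgeR). Hgsnat, the membrane acetyltransferase of heparan sulphate breakdown, had 225, 257 and 237 CPM in the TBI libraries, against 53.1 and 50.8 CPM in the untreated libraries, with a log2 difference of 2.21 ± 0.14 (SE; adjusted p = 2.25e-05 by edgeR). Their groups were far apart. Ppt1, a palmitoyl-protein thioesterase, fell, with 794, 798 and 614 CPM in the TBI libraries, against 2799 and 3026 CPM in the untreated libraries and a log2 difference of -1.99 ± 0.14 (SE; adjusted p = 3.28e-05 by edgeR). Among membrane proteins, Gpnmb, a glycoprotein of lipid-laden macrophages, had 102, 172 and 149.7 CPM in the TBI libraries, against 15.2 and 12.5 CPM in the untreated libraries, with a log2 difference of 3.35 ± 0.27 (SE; adjusted p = 6.55e-05 by edgeR). Slc11a1, the phagosomal metal transporter NRAMP1, had 259, 339.8 and 335 CPM in the TBI libraries, against 56.96 and 56.7 CPM in the untreated libraries, with a log2 difference of 2.45 ± 0.17 (SE; adjusted p = 3.05e-05 by edgeR). Laptm4b, a relative of Laptm5, went the other way, with 31.3, 25.6 and 29.8 CPM in the TBI libraries, against 89.1 and 98.2 CPM in the untreated libraries and a log2 difference of -1.70 ± 0.17 (SE; adjusted p = 0.000199 by edgeR).

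In the nutrient-sensing list, whose proteins recruit and control the kinase mTORC1 at the lysosome, 27.8% of the 18 genes were called in either direction. Over all genes tested the share was near that, at 23.1%, and the median log2 fold change of the list was -0.15. Lamtor4, a subunit of the Ragulator complex, had 61.1, 41.96 and 43.8 CPM in the TBI libraries, against 25.6 and 21.1 CPM in the untreated libraries (log2 fold change 1.07 ± 0.23, adjusted p = 0.0125). Rptor, the scaffold of mTORC1, had 13.6, 34.4 and 20.7 CPM in the TBI libraries, against 57.1 and 54.3 CPM in the untreated libraries (-1.28 ± 0.33, adjusted p = 0.0259), and Fnip2, a partner of folliculin, had 7.67, 14.7 and 11.5 CPM in the TBI libraries, against 26.8 and 30.1 CPM in the untreated libraries (-1.33 ± 0.29, adjusted p = 0.0115). Lamtor4 was higher in all TBI libraries, and Rptor and Fnip2 were lower in all of them. None of the 3 was called with an untreated library left out, where the adjusted p was 0.0677, 0.121 and 0.0583 without replicate 1 and 0.147, 0.103 and 0.101 without replicate 2.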

How the data were processed

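RNA from dendritic cells of pooled mouse thymi was amplified with a SMART-Seq v4 kit before Illumina sequencing, per the labels' protocols. The submitters' processing notes name STAR 2.5.2a as aligner, mm10 as genome and featureCounts 1.6.0. The authors deposited whole-number counts for each gene symbol with no scaling. The sources used here do not give the annotation, the strand setting or how reads with several matches were treated, so genes that overlap or are near-identical may share or lose reads. The treatment note gives the irradiated samples another day in their name, while titles and tags say day 4, which was used.

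The main test was edgeR 4.0.16 (R 4.3.3): TMM scaling, a low-count filter (filterByExpr), the quasi-likelihood test on group alone, and Benjamini-Hochberg adjustment over 12046 genes, with calls at 0.05. The filter kept genes that reached the CPM of 10 counts at median depth in at least 2 libraries, the size of the smaller group. It also asked for 15 counts in total. CPM was taken over TMM-scaled totals of tested genes. Fold changes and log2 differences are TBI over untreated. Depth was 7227000 to 8428589 counts per library, and precision is read from the replicates. Coordinates and exon lengths were matched by symbol to GENCODE M21 (GRCm38) for all 43 genes, and shared 50-base stretches were counted between its transcripts. A spreadsheet had turned 23 symbols into dates, none of them named here. The script was tested on simulated counts with known changes.

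There were 13 alternatives. Of these, 3 changed the scaling (size factors of DESeq2 1.42.0, upper quartile, library size alone), 2 the filter (none, or 1 CPM in 3 libraries with 100 counts in total) and 2 the test (DESeq2 Wald, voom in limma 3.58.1), 1 added the replicate number as a block, and 5 left out a library each. Where that library was untreated, the remaining one was taken to vary as the TBI libraries do. The replicate block gives TBI replicate 3 a term of its own, so that library does not inform the group difference there. The 43 genes and the other lists were chosen with earlier results of these data known. All 43 genes are named. From each other list up to 3 called genes with the smallest p were eligible, or the 2 most expressed where none was called. H2-Aa, Cd74, Cd68, S100a8, S100a9, Elane, Tcirg1, the further sulphatases and the genes that share sequence were named after their values were seen. Proteins of the d subunits were not used here. Plots were made with matplotlib 3.10.9 (Python 3.11.15).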

Additional observations from a re-analysis of the deposited data

How the results depend on the processing

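Of the 28 called genes, 11 kept their call under all 13 alternatives and 21 under the 8 that keep all libraries. With library size alone, 2129 genes in all were called lower, with 6 of the 43, 1 membrane gene, 4 of the hydrolase class and 18 of the further lysosomal genes, while 7 of the hydrolase class were higher. Leaving out 1 library gave 810 to 2148 genes higher and 423 to 1780 lower over the whole table, 12 to 27 and 1 to 4 of the 43, 3 to 5 membrane genes higher, 0 to 1 V-ATPase genes lower, 4 to 12 and 1 to 3 of the hydrolase class, and 15 to 44 and 6 to 15 of the further lysosomal genes. The cause of these moves was not tested, apart from the loss of a library. Genes that were not called and changed sign were Gaa (log2 fold change -0.20 with library size alone, -0.0279 with upper quartile scaling, -0.0248 with limma-voom, -0.15 with the replicate block, -0.133 to 0.243 with a library left out), Atp6v1h (0.0394 with the replicate block, -0.0713 to 0.0462 with a library left out) and, with library size alone, Atp6ap2 (-0.0738), Gm2a (-0.0738) and Grn (-0.18). The replicate block gave 23 of the 43 higher and 2 lower, with 0 V-ATPase genes lower. This setting is counted among the 8 that keep all libraries. However, TBI replicate 3 alone has its number, so in that fit it does not inform the group difference. The labels give the groups the same replicate numbers and name no pairing. Deviations of same-numbered libraries from their group means correlated at -0.0160 and -0.00989 across genes. With 2 untreated libraries those deviations mirror each other, so the correlations cannot tell whether the libraries were paired. Depth limits the low genes most, such as Atp6v0c with 44 to 79 counts per library. Its counts may also depend on reads shared with pseudogenes, which was not tested.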
